A study of Homo sapiens with 63 samples.

Results

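Aminoacyl-tRNA synthetases were followed in 35 genes, 19 that serve the cytosol and 16 that serve mitochondria, out of 58336 genes in the table. They were chosen by name: 17 symbols ending in 1 plus FARSA and FARSB for the cytosol, and symbols ending in 2 for mitochondria. The naming rule reads no expression value, but the set was proposed with earlier results of these data known. All 35 passed the filter on low counts and were among the 19352 genes tested.

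The cells were HEK293T, an established human embryonic kidney line, made to express Halo, a protein tag that binds chloroalkane ligands. The compounds compared were the anti-inflammatory drug ibuprofen and its relative ibufenac, which lacks the α-methyl group of ibuprofen. Per the series' design text, a Halo-binding precursor of each drug's acyl glucuronide was given at 10 µM for 2 h, excess was washed out, and light of 365 nm at 5 mW/cm2 for 3 min released the glucuronide. The 63 libraries make 21 groups of 3: DMSO alone and each drug as bolus, photocaged and probe, each taken at 6, 12 and 18 h. The labels give neither the bolus dose nor how the photocaged and probe arms differ, nor which arms received light. Nothing says that replicates came from separate cultures, so p-values measure the spread between these libraries, which may be technical. All groups share the Halo background and the same DMSO libraries serve every comparison with DMSO.

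Each synthetase loads its own amino acid onto the matching tRNAs, and cells keep separate nuclear genes for the cytosolic and mitochondrial enzymes. GARS1 and KARS1 are the exceptions in which the same gene supplies both compartments. EPRS1 is a fused enzyme for glutamate and proline, FARSA and FARSB are the subunits of cytosolic phenylalanine synthetase, and mitochondria make glutaminyl-tRNA by amidation and have no QARS1 of their own. Several cytosolic synthetase genes are known targets of ATF4, the transcription factor of the amino acid response, which binds a composite C/EBP-ATF element.

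To show where such an element lies, the 8 letters TGATGCAA, a core form of it, were searched on both strands of RefSeq promoter windows (GRCh38.p14, 250 bases before to 50 after a start). Of the 16 cytosolic members with a window, 6 held it, against 0 of 14 mitochondrial members. Among all 27305 genes with a window, 1.08% held it. The form TGATGNAA, which includes the first, was found in 7 cytosolic members and 1 mitochondrial member, and in 4.46% of all genes. LARS1, VARS1, YARS1, AARS2 and VARS2 had no window. The 7 cytosolic sites and the mitochondrial one are printed on the gene's strand, 5′ to 3′, with the match to either form in capitals (TTGCATCA is TGATGCAA on the other strand).
AARS1, chr16:70289675-70289704, minus strand: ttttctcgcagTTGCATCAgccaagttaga
CARS1, chr11:3057407-3057436, minus strand: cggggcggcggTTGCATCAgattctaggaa
IARS1, chr9:92293692-92293721, minus strand: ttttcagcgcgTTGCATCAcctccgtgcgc
MARS1, chr12:57488053-57488082, plus strand: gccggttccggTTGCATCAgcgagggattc
NARS1, chr18:57621804-57621833, minus strand: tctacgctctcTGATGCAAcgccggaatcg
TARS1, chr5:33440956-33440985, plus strand: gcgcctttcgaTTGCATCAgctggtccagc
GARS1, chr7:30594834-30594863, plus strand: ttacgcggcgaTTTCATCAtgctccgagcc
YARS2, chr12:32756076-32756105, minus strand: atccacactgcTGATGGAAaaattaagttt

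SARS1 had the highest averaged change of the 35 and neither form in its window. The 250 bases before its RefSeq start are shown for that reason. No match says only that these letters are not there. EPRS1 and WARS1, with averaged changes of up to 0.35 and 0.31, held neither form in their windows either. TARS1 held TGATGCAA and had no call in any averaged comparison with DMSO.
SARS1, chr1:109213643-109213892, plus strand: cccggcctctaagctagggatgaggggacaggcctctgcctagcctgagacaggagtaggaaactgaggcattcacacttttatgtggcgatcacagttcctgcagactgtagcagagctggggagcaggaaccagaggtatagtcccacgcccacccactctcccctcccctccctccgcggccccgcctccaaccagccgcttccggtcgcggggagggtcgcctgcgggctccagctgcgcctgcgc

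The smallest library summed to 12.1 M counts, the median one to 19.6 M and the deepest to 38.4 M. Of 6 markers of HEK293T cells, 5 had a median of at least 10 counts, against 1 of 5 for hepatocytes and 1 of 4 each for blood, fibroblasts and epithelium. The libraries farthest from their groups were replicate 3 of ibufenac bolus at 18 h and at 6 h, and in DMSO replicate 3 at 18 h stood farthest off. In bulk RNA, fewer cells of a kind and less RNA per cell cannot be told apart.

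In DMSO, transcripts of cytosolic synthetases were more abundant per length than those of mitochondrial ones. The median over members of the mean FPKM (fragments scaled to transcript length and library size, the authors' level) was 68.7 for the cytosolic and 14.5 for the mitochondrial members, against 4.03 over all tested genes. TARS1, the threonine enzyme, was highest at 150 ± 10.9 FPKM (SD, n = 9), followed by SARS1 at 143 ± 6.54, IARS1 at 125 ± 9.38 and YARS1 at 117 ± 12.7. These neighbours lie close together, and the DMSO ranges of TARS1 (132 to 163) and SARS1 (133 to 150) overlap. FARSB was the lowest cytosolic member at 23.9 ± 4.83 FPKM, while its partner subunit FARSA stood at 69.4 ± 5.62. Among mitochondrial members IARS2 was highest at 53.6 ± 6.13 FPKM, the only one within the top 19, followed by LARS2 at 30.2 ± 4.81 and TARS2 at 27.8 ± 5.18. PARS2 was lowest at 7.95 ± 0.982 FPKM, below MARS2 at 9.58 ± 1.11. Within an amino acid, the FPKM of the cytosolic gene over that of the mitochondrial one at 6 h ran from 1.56 ± 0.11 for VARS1 and VARS2 to 9.74 ± 1.04 for YARS1 and YARS2, the tyrosine pair (SD, n = 3).

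**Figure D1:**
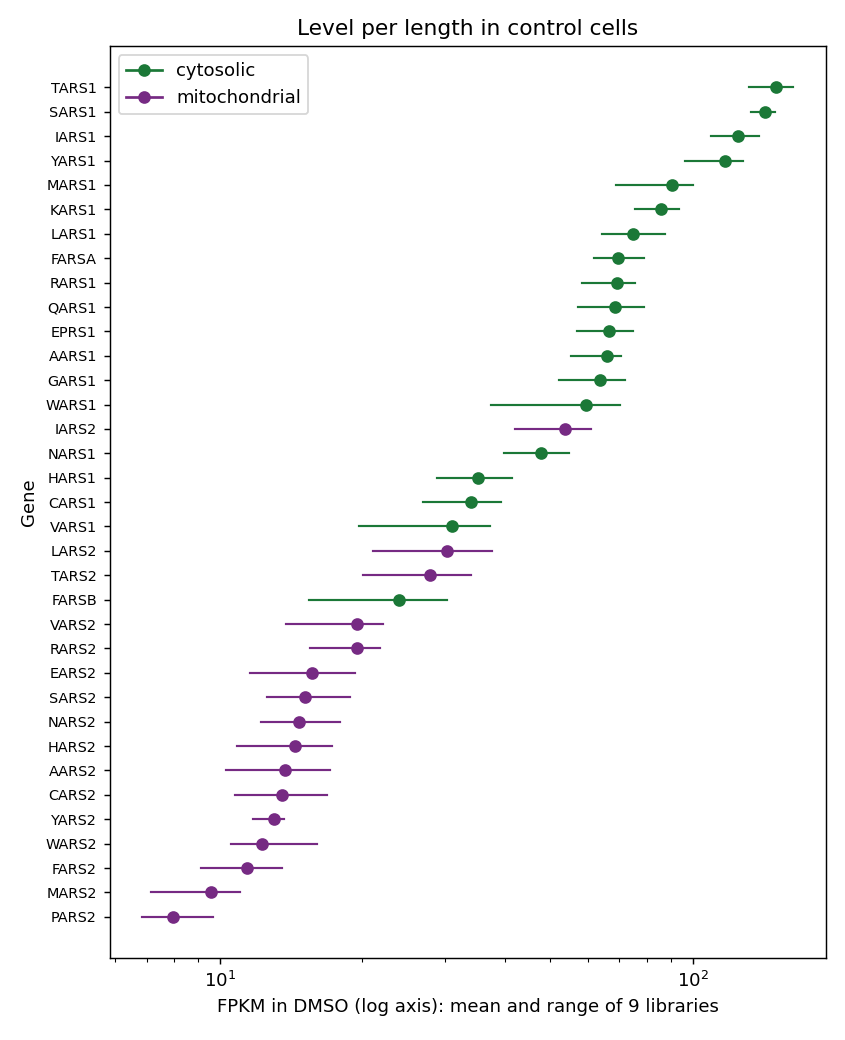
FPKM in DMSO (log axis) of the 35 members, as the mean (point) and range (line) of 9 libraries, coloured by compartment. Cytosolic members fill the top 14 places, and IARS2 is the mitochondrial member that comes nearest, at 53.6.

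**Figure D2:**
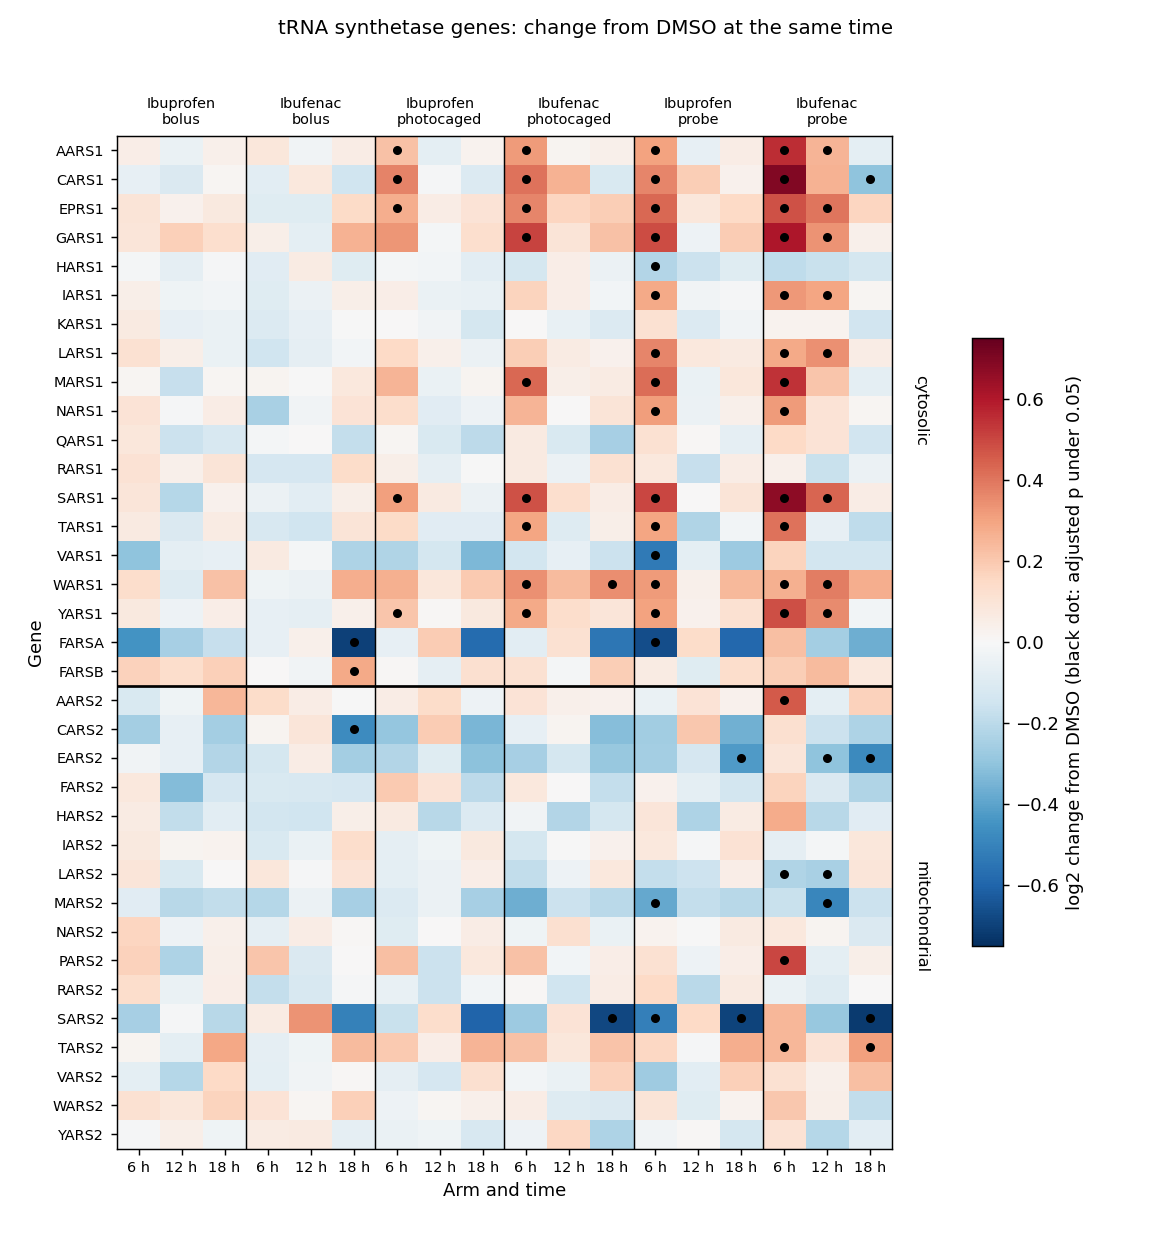
Log2 change against DMSO of the 35 members (rows, cytosolic above mitochondrial) in the 6 drug arms at 6, 12 and 18 h (columns), 3 libraries per group, with called cells marked. The cytosolic block carries most of the higher cells, at 6 h in the photocaged and probe arms and also at 12 h with the ibufenac probe.

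The first question was whether each arm, averaged over its 3 times, differed from DMSO (9 libraries per arm). Of 19 cytosolic members 8 to 12 rose with both probes and photocaged ibufenac, and 2 with photocaged ibuprofen. Of 16 mitochondrial members 1 rose and 2 or 3 fell with both probes and photocaged ibufenac, and 1 rose and 1 fell with photocaged ibuprofen. A gene is said to rise or fall where edgeR's quasi-likelihood test gave a Benjamini-Hochberg adjusted p under 0.05 over all 19352 genes. Changes are log2 values with their standard error. With the ibufenac probe 12 of 19 cytosolic members rose and 1 fell, with a median change over the 19 of 0.21. Of all tested genes 5.87% rose and 7.31% fell, with a median of -0.01. Of the 16 mitochondrial members 1 rose and 3 fell, with a median of -0.03. With the ibuprofen probe 8 cytosolic members rose and 3 fell (median 0.10), and 1 mitochondrial member rose and 3 fell (median -0.04), beside 3.81% and 4.61% of all genes. With photocaged ibufenac 8 cytosolic members rose and none fell (median 0.10), and 1 mitochondrial member rose and 2 fell (median -0.03), beside 4.13% and 3.36%. With photocaged ibuprofen 2 cytosolic members rose and 1 fell, and 1 mitochondrial member rose and 1 fell, beside 1.98% and 2.3%. In those 4 arms the share of cytosolic members that rose and the share of mitochondrial members that fell both stood above the share of all genes, the latter on 1 to 3 genes. The share of mitochondrial members that rose, 1 gene in each arm, stood above it as well. So did the share of cytosolic members that fell with the ibuprofen probe and with photocaged ibuprofen, on 3 genes and 1. With photocaged ibuprofen the 2 cytosolic calls became 0 without DMSO replicate 2 at 6 h, and without replicate 1 of DMSO or of that arm at 12 h, and all its member calls became 0 when the compared arms were fitted alone.

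Neither bolus gave a call. With ibuprofen bolus edgeR and DESeq2 each called 0 of 35 members, and before adjustment p was under 0.05 for 5 cytosolic and 2 mitochondrial ones. Of all genes 0.0258% were called. With ibufenac bolus both tools also called 0, before adjustment p was under 0.05 for 1 cytosolic and 2 mitochondrial members, and 0.0103% of all genes were called.

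SARS1, the cytosolic serine enzyme (chromosome 1, 109213918 to 109238169), had the largest averaged change. On the CPM scale (counts scaled to library size with TMM factors), the DMSO libraries read 266, 251 and 243 at 6 h, 240, 250 and 253 at 12 h, and 259, 274 and 277 at 18 h. The ibufenac probe gave 413, 403 and 394 at 6 h, 306, 360 and 340 at 12 h, and 257, 291 and 293 at 18 h. All 6 probe libraries at 6 and 12 h lay above all 9 DMSO libraries, and at 18 h the groups overlapped. The ibuprofen probe gave 345, 374 and 354 at 6 h, 264, 242 and 239 at 12 h, and 282, 299 and 284 at 18 h. It stood apart from DMSO at 6 h and, by a few CPM, at 18 h, and overlapped with it at 12 h. Photocaged ibufenac gave 383, 336 and 339 CPM at 6 h and photocaged ibuprofen 314, 322 and 305, all above DMSO, while the boluses gave 215 to 272. The averaged change was 0.39 ± 0.04 with the ibufenac probe (adjusted p = 9.65e-11, edgeR), 0.22 ± 0.04 with photocaged ibufenac (9.09e-05) and 0.20 ± 0.04 with the ibuprofen probe (0.000544).

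EPRS1, which charges glutamate and proline tRNAs (chromosome 1, 219968601 to 220046658), rose in all 4 of these arms. DMSO gave 362, 325 and 353 CPM at 6 h, 321, 324 and 358 at 12 h, and 288, 300 and 374 at 18 h. Libraries of the ibufenac probe read 515, 463 and 472 at 6 h, 431, 458 and 437 at 12 h, and 353, 366 and 356 at 18 h, so that the groups were apart at 6 and 12 h and overlapped at 18 h through DMSO replicate 3. The averaged changes were 0.35 ± 0.04 with the ibufenac probe (adjusted p = 9.2e-09, edgeR), 0.24 ± 0.04 with photocaged ibufenac (7.23e-05), 0.22 ± 0.04 with the ibuprofen probe (0.000295) and 0.14 ± 0.04 with photocaged ibuprofen (0.032).

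GARS1, the glycine enzyme of both compartments (chromosome 7, 30594681 to 30634033), rose in 3 arms. DMSO gave 185, 178 and 180 CPM at 6 h, 151, 163 and 157 at 12 h, and 153, 142 and 138 at 18 h, a fall with time in the controls themselves. The ibufenac probe gave 298, 262 and 266 at 6 h, 215, 195 and 185 at 12 h, and 139, 154 and 152 at 18 h, above DMSO at 6 and 12 h and overlapping with it at 18 h. The averaged change was 0.33 ± 0.06 with the ibufenac probe (adjusted p = 2.71e-05, edgeR), 0.28 ± 0.06 with photocaged ibufenac (0.000739) and 0.21 ± 0.06 with the ibuprofen probe (0.0116). KARS1, the other gene of both compartments, was called in no arm, with averaged changes between -0.05 and -0.0043.

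WARS1, the tryptophan enzyme (chromosome 14, 100333788 to 100376805), rose in all 4 arms. DMSO gave 129, 118 and 121 CPM at 6 h, 104, 107 and 110 at 12 h, and 108, 97.0 and 69.9 at 18 h, where replicate 3 lay well below the others. Ibufenac probe values were 155, 143 and 145 at 6 h, 139, 144 and 136 at 12 h, and 104, 111 and 118 at 18 h, and only the 18 h groups overlapped. Averaged changes were 0.31 ± 0.05 with the ibufenac probe (adjusted p = 1.24e-05, edgeR) and with photocaged ibufenac (3.07e-05), 0.20 ± 0.05 with the ibuprofen probe (0.0084) and 0.18 ± 0.05 with photocaged ibuprofen (0.0256). The last was 0.13 (0.0852) without DMSO replicate 3 at 18 h. A single-time call at 18 h with photocaged ibufenac, 0.35 ± 0.09 (adjusted p = 0.0184), was 0.19 (0.207) without DMSO replicate 3.

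The other cytosolic members that rose with the ibufenac probe were YARS1 (0.27), AARS1 (0.25), LARS1 and MARS1 (0.23 each), CARS1 (0.22), IARS1 (0.21), FARSB (0.17) and NARS1 (0.145), with standard errors of 0.03 to 0.05. Of these, CARS1 at 0.20, LARS1 at 0.17, MARS1 and YARS1 at 0.15 also rose with the ibuprofen probe, and MARS1, CARS1, YARS1 and AARS1 rose by 0.13 to 0.18 with photocaged ibufenac. NARS1 lost its call when any of 10 single libraries was left out, and FARSB without DMSO replicate 3 at 18 h (adjusted p = 0.0550). Reads of MARS1 overlap those of DDIT3 on the opposite strand, and the counting strand is not given in the sources used here. DDIT3, itself an ATF4 target, rose at 6 h by 1.06 ± 0.12 in the ibufenac probe arm (adjusted p = 5.98e-09, edgeR), against 0.54 ± 0.07 for MARS1, and stood at 0.07 ± 0.12 (0.782) in the ibuprofen probe arm, where MARS1 rose by 0.42 ± 0.07. Its part in the MARS1 counts was not tested.

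In the averaged comparisons 3 cytosolic members fell. HARS1, the histidine enzyme, fell by 0.16 ± 0.04 with the ibufenac probe (adjusted p = 0.00338, edgeR) and by 0.16 ± 0.04 with the ibuprofen probe (0.00999). Its exons overlap those of HARS2 on the opposite strand, and HARS2 was not called, at -0.13 to -0.01 over the 6 arms. VARS1, the valine enzyme, fell by 0.29 ± 0.07 with the ibuprofen probe (0.00508) and by 0.23 ± 0.07 with photocaged ibuprofen (0.0454). FARSA (chromosome 19, 12922479 to 12934037) fell by 0.37 ± 0.11 with the ibuprofen probe (0.0223), while FARSB was not called there. For FARSA, DMSO gave 119, 129 and 132 CPM at 6 h, 120, 102 and 109 at 12 h, and 146, 143 and 137 at 18 h. The ibuprofen probe gave 67.6, 77.4 and 94.2 at 6 h, 118, 132 and 115 at 12 h, and 83.3, 92.3 and 108 at 18 h. The groups were apart at 6 and 18 h, with the drug lower, and overlapped at 12 h. Over the 6 arms, boluses included, FARSA averages ran from -0.37 to -0.13. The call was lost without replicate 1 of the ibuprofen probe at 6 or 18 h, or DMSO replicate 1 at 12 h (adjusted p up to 0.0584). The VARS1 call with photocaged ibuprofen was lost on leaving out any of 14 single libraries, those of EPRS1 and WARS1 in that arm on any of 9 and 7.

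VARS1, FARSA and SARS2 are the most GC-rich members, at 62.6%, 60.3% and 61.2% GC of the longest transcript, beside a median of 48.3% over tested genes. The log2 changes of all genes moved with GC in several arms. Across 12887 genes Spearman's rho between change and GC was -0.59 for the ibuprofen probe at 6 h, 0.43 at 12 h and -0.50 at 18 h, and 0.26, -0.08 and -0.37 for the ibufenac probe. These are descriptions across genes, which are not replicates. With the GC and length trends taken out, VARS1 changed by -0.07 (adjusted p = 0.521) with the ibuprofen probe and by -0.11 (0.297) with photocaged ibuprofen, and lost both calls. The counts of cytosolic members that rose moved little: 12 with the ibufenac probe, 9 with the ibuprofen probe, 8 with photocaged ibufenac and 3 with photocaged ibuprofen.

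**Figure D3:**
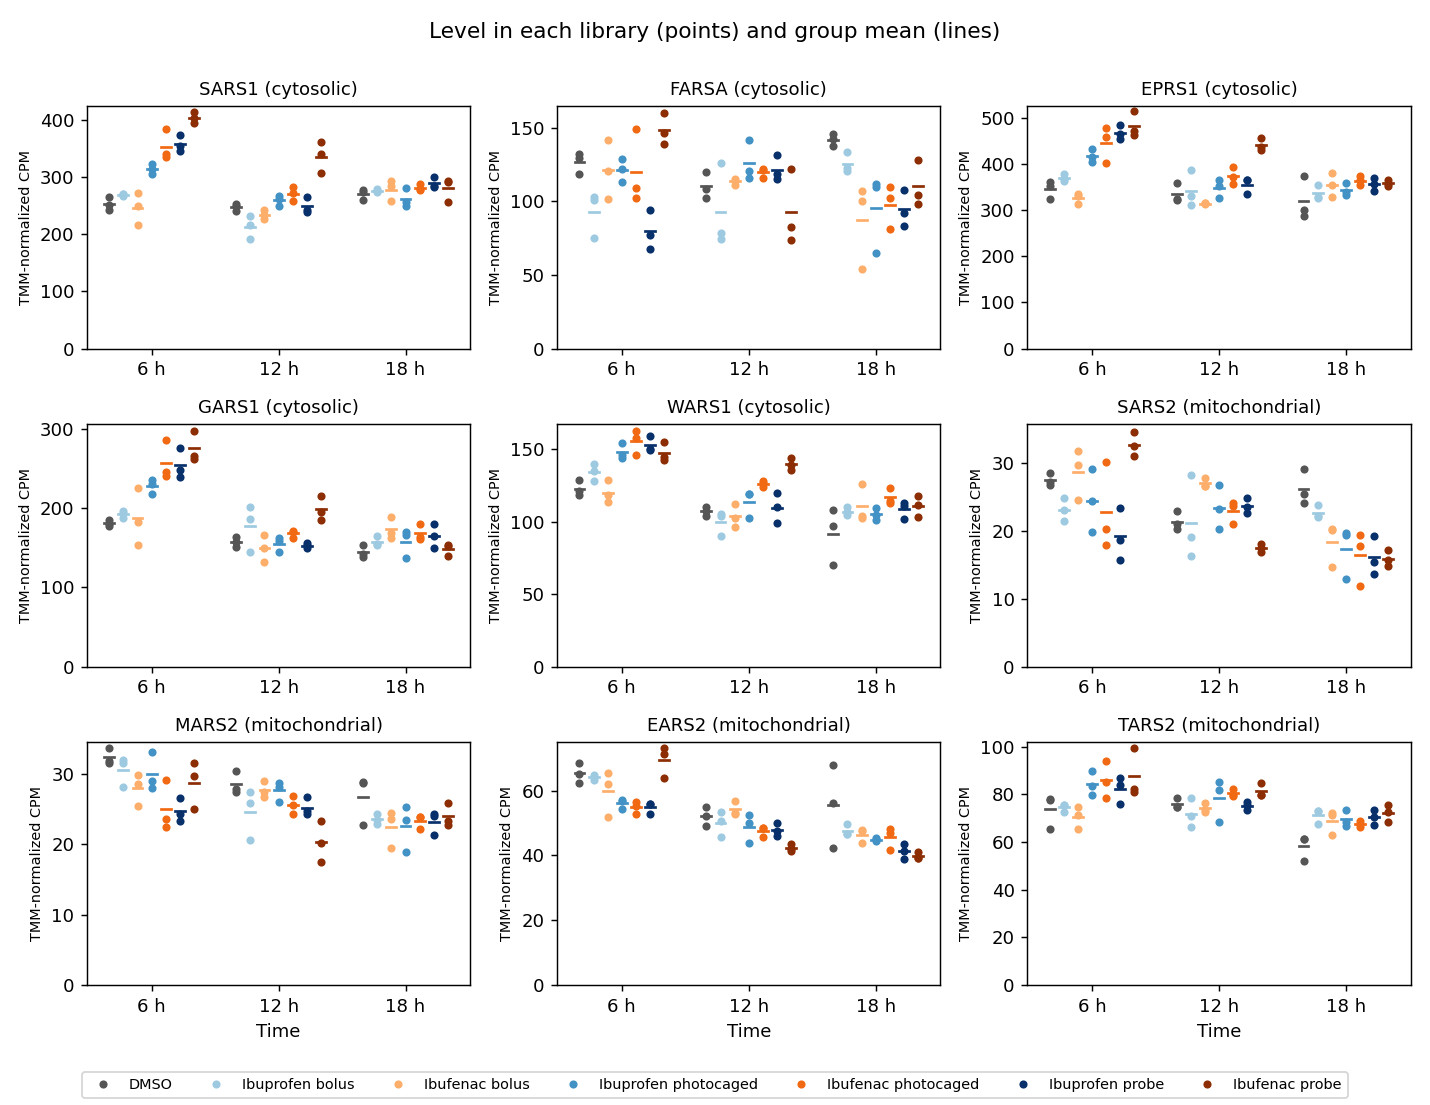
CPM in each library (points) of the 5 cytosolic and 4 mitochondrial members with the largest averaged change, by arm and time, with the group mean as a line. SARS1, EPRS1, GARS1 and WARS1 sit above DMSO at 6 h in the photocaged and probe arms, and SARS2 and EARS2 sit low at 18 h.

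Among mitochondrial members, EARS2, the glutamate enzyme (chromosome 16, 23522014 to 23557731), fell in all 4 arms. With the uncalled boluses included, its averages over the 6 arms ran from -0.27 to -0.10. DMSO gave 68.5, 62.3 and 65.2 CPM at 6 h, 55.1, 49.0 and 52.3 at 12 h, and 42.4, 56.1 and 68.1 at 18 h, the last group being widely spread. The ibufenac probe gave 73.2, 71.5 and 64.0 at 6 h, 43.5, 42.1 and 41.4 at 12 h, and 39.1, 39.3 and 41.2 at 18 h. It overlapped DMSO at 6 h and lay wholly below it at 12 and 18 h. The ibuprofen probe gave 55.9, 52.8 and 55.8 CPM at 6 h, 47.5, 49.9 and 46.1 at 12 h, and 41.5, 43.7 and 38.8 at 18 h, below DMSO at 6 h and overlapping at the other times. The averaged changes were -0.27 ± 0.05 with the ibuprofen probe (adjusted p = 0.000507, edgeR), -0.23 ± 0.05 with the ibufenac probe (0.00133), -0.22 ± 0.05 with photocaged ibufenac (0.00306) and -0.21 ± 0.05 with photocaged ibuprofen (0.0126). The last was 0.0633 in adjusted p without DMSO replicate 3 at 18 h.

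MARS2, the methionine enzyme (chromosome 2, 197705369 to 197708387), fell in 3 arms. Its averages lay below 0 in all 6 arms, boluses included, from -0.27 to -0.13. DMSO gave 33.7, 31.6 and 31.9 CPM at 6 h, 30.4, 27.9 and 27.4 at 12 h, and 28.7, 22.8 and 28.9 at 18 h. Ibufenac probe values were 29.7, 25.0 and 31.6 at 6 h, 23.4, 20.2 and 17.5 at 12 h, and 23.3, 22.8 and 25.9 at 18 h. The groups were apart at 12 h and overlapped at the other times. Averaged changes were -0.27 ± 0.06 with the ibufenac probe (adjusted p = 0.00221, edgeR), -0.26 ± 0.06 with the ibuprofen probe (0.00777) and -0.24 ± 0.06 with photocaged ibufenac (0.0115).

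SARS2, the serine enzyme of mitochondria (chromosome 19, 38915266 to 38930896), fell on average with the ibuprofen probe, by 0.35 ± 0.10 (adjusted p = 0.0196, edgeR). DMSO gave 26.8, 28.6 and 27.2 CPM at 6 h, 22.9, 20.3 and 20.97 at 12 h, and 29.1, 24.1 and 25.5 at 18 h. The ibuprofen probe gave 15.8, 18.7 and 23.5 at 6 h, 23.6, 24.9 and 22.7 at 12 h, and 15.5, 13.7 and 19.3 at 18 h, so that it was below DMSO at 6 and 18 h and mostly above at 12 h. The ibufenac probe gave 32.5, 34.6 and 31.1 at 6 h, 17.6, 18.1 and 17.0 at 12 h, and 14.8, 17.3 and 15.7 at 18 h, which is above DMSO at 6 h and below it later. The averaged fall was 0.17 (0.161) with the GC and length trends taken out and lost its call without replicate 1 of the ibuprofen probe at 6 h (0.0558). Exons of SARS2 overlap MRPS12 on the opposite strand.

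TARS2, the threonine enzyme of mitochondria (chromosome 1, 150487364 to 150507609), was the one mitochondrial member to rise on average. DMSO gave 77.4, 78.2 and 65.6 CPM at 6 h, 78.3, 74.5 and 74.5 at 12 h, and 61.3, 61.4 and 52.2 at 18 h. Ibufenac probe libraries gave 82.1, 81.0 and 99.5 at 6 h, 79.7, 79.8 and 84.7 at 12 h, and 75.6, 68.5 and 72.5 at 18 h, above DMSO at every time. Averaged changes were 0.22 ± 0.05 with the ibufenac probe (adjusted p = 0.000511, edgeR), 0.17 ± 0.05 with photocaged ibufenac (0.011) and with photocaged ibuprofen (0.027), and 0.14 ± 0.05 with the ibuprofen probe (0.0487). The call with the ibuprofen probe was lost on leaving out any of 12 single libraries, and that with photocaged ibuprofen on any of 6, DMSO replicate 3 at 18 h among them in both. LARS2, the leucine enzyme, fell by 0.12 ± 0.04 with the ibufenac probe (0.0332), a call lost on leaving out any of 10 libraries.

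The remaining 11 mitochondrial members and 4 cytosolic ones (KARS1, QARS1, RARS1 and TARS1) were called in no averaged comparison. QARS1, the glutamine enzyme, ranged from -0.10 to 0.04 over the 6 arms, RARS1 from -0.06 to 0.08 and TARS1 from -0.06 to 0.08. Over these 11 mitochondrial members and the 6 arms, averages ranged from -0.19 for CARS2 to 0.19 for AARS2. Counting single times too, 3 cytosolic members (KARS1, QARS1, RARS1) and 8 mitochondrial ones (FARS2, HARS2, IARS2, NARS2, RARS2, VARS2, WARS2 and YARS2) were called against DMSO nowhere.

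At 6 h alone, with 3 libraries per group, most cytosolic calls appeared together. With the ibufenac probe 12 cytosolic members rose and none fell (median 0.32), beside 4.63% of all genes that rose and 8.11% that fell. CARS1, the cysteine enzyme, rose by 0.69 ± 0.08 (adjusted p = 1.86e-08, edgeR), SARS1 by 0.67 ± 0.07 (1.69e-10), GARS1 by 0.61 ± 0.10 (1.1e-05) and AARS1, the alanine enzyme, by 0.56 ± 0.06 (3.11e-10). MARS1 rose by 0.54, YARS1 and EPRS1 by 0.48, TARS1 by 0.41, NARS1 and IARS1 by 0.32, LARS1 by 0.29 and WARS1 by 0.27. For CARS1 the DMSO libraries gave 89.6, 83.1 and 80.1 CPM and the probe libraries 130, 140 and 139, well apart. With the ibuprofen probe 12 cytosolic members rose and 3 fell (median 0.30), beside 3.61% and 7.82% of all genes. SARS1 rose by 0.50 ± 0.07 (3.75e-06), GARS1 by 0.49 ± 0.10, EPRS1 by 0.43 ± 0.07 and MARS1 by 0.42 ± 0.07, and AARS1, CARS1, IARS1, LARS1, NARS1, TARS1, WARS1 and YARS1 by 0.28 to 0.37. Both probes are set against the same DMSO libraries. VARS1 fell by 0.53 ± 0.12 (0.00424), FARSA by 0.67 ± 0.19 (0.0157) and HARS1 by 0.22 ± 0.07 (0.0351). With the GC and length trends taken out VARS1 stood at 0.05 (0.869) and FARSA at -0.23 (0.153). The HARS1 call was lost on leaving out any of the 6 libraries compared, and the WARS1 call with the ibufenac probe on any of 5, all but DMSO replicate 1.

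With photocaged ibufenac at 6 h, 9 cytosolic members rose and none fell (median 0.26), beside 1.78% and 1.26% of all genes. GARS1 rose by 0.51 ± 0.10 (adjusted p = 0.000787, edgeR), SARS1 by 0.48 ± 0.07 (4.11e-06) and MARS1 by 0.43 ± 0.07 (6.86e-05), and the other 6 (CARS1, EPRS1, WARS1, AARS1, TARS1, YARS1) by 0.29 to 0.41. With photocaged ibuprofen, CARS1 (0.37 ± 0.08), SARS1 (0.31 ± 0.07), EPRS1 (0.27 ± 0.07), AARS1 (0.22 ± 0.06) and YARS1 (0.21 ± 0.05) rose, with adjusted p of 0.0143 to 0.0469 by edgeR, 5 of 19 (median 0.14) beside 0.599% of all genes that rose and 0.393% that fell. That count of 5 became 0 without DMSO replicate 2 or 3 or photocaged replicate 2 at 6 h. In neither bolus was a member called by edgeR at 6 h: DESeq2 called 0 and 0, and p before adjustment was under 0.05 for 3 and 2 cytosolic and 0 mitochondrial members. Of all genes 0% and 0.0258% were called in these arms.

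Mitochondrial members at 6 h were called by edgeR in the probe arms and in none of the other 4 arms. With the ibufenac probe PARS2, the proline enzyme, rose by 0.50 ± 0.14 (adjusted p = 0.0124, edgeR), AARS2 by 0.46 ± 0.13 (0.00968) and TARS2 by 0.25 ± 0.08 (0.0291), while LARS2 fell by 0.22 ± 0.07 (0.0269). That is 3 of 16 higher and 1 lower, beside 4.63% of all genes that rose and 8.11% that fell, so the 1 fall was near that share. The mitochondrial median there was 0.12. The AARS2 call held whichever library was left out, PARS2 lost its call on leaving out any of 4, LARS2 any of 3 and TARS2 either replicate 3 (DMSO or probe). LARS2 stood at -0.19 (0.0622) and TARS2 at 0.20 (0.0669) with the GC and length trends taken out, and with the compared arms alone at -0.20 (0.145) and 0.27 (0.0611). AARS2 gave 67.6, 70.3 and 66.5 CPM against 47.8, 51.9 and 48.7 in DMSO, without overlap, and PARS2 gave 28.5, 26.4 and 19.2 against 16.7, 16.6 and 19.01, with replicate 3 next to DMSO. With the ibuprofen probe MARS2 fell by 0.39 ± 0.11 (0.0186) and SARS2 by 0.51 ± 0.17 (0.0438). These are 2 of 16, too few to set apart from the 7.82% of all genes that fell there, and 0 rose beside 3.61%. Both calls were lost on leaving out any of 5 of the 6 libraries (all but ibuprofen probe replicate 3), and SARS2 stood at -0.02 (0.953) with the GC and length trends taken out. Under that setting 2 mitochondrial members rose and 1 fell with the ibuprofen probe, so the direction of most calls there depended on it. In the photocaged arms edgeR called 0, with 4 members (ibufenac) and 3 (ibuprofen) at an unadjusted p under 0.05 and 1 and 0 called by DESeq2.

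At 12 h calls came with the ibufenac probe. There 8 cytosolic members rose (median 0.24), beside 1.83% of all genes: SARS1 by 0.44 ± 0.07 (adjusted p = 1.62e-05, edgeR), EPRS1 by 0.40 ± 0.07 (0.000162), WARS1 by 0.38 ± 0.09 (0.00469), YARS1 by 0.36 ± 0.05 (1.58e-05), LARS1 and GARS1 by 0.34, IARS1 by 0.29 and AARS1 by 0.26. Mitochondrial MARS2 fell by 0.49 ± 0.11 (0.00464), EARS2 by 0.30 ± 0.09 (0.0395) and LARS2 by 0.24 ± 0.07 (0.0362), beside 2.67% of all genes. The mitochondrial count of 3 became 0 without replicate 3 of the ibufenac probe. GARS1 lost its call on leaving out any library but that one, and LARS1 without probe replicate 2 (0.0535). In the other 5 arms edgeR called 0 of 35 at 12 h. Unadjusted p was under 0.05 for 6 members with the ibuprofen probe, 4 with photocaged ibufenac, 0 with photocaged ibuprofen, 5 with ibuprofen bolus and 1 with ibufenac bolus, and DESeq2 called 1, 0, 0, 0 and 0 in the same order. Of all genes 1.97%, 1.58%, 0.677%, 0.0103% and 0% were called in these arms.

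At 18 h the cytosolic rise was no longer called with either probe. With the ibufenac probe SARS1 stood at 0.06 ± 0.07 (adjusted p = 0.764, edgeR) and CARS1 fell by 0.30 ± 0.08 (0.0363), beside 0.889% of all genes that fell. The CARS1 call was lost on leaving out 5 of the 6 libraries (all but DMSO replicate 3). Of all genes 1.8% rose there, the ibuprofen probe had 1.02% higher and 0.76% lower, and photocaged ibufenac 1.66% and 1.19%. SARS2 fell with the ibufenac probe by 0.72 ± 0.18 (0.0138), with the ibuprofen probe by 0.70 ± 0.18 (0.0257) and with photocaged ibufenac by 0.68 ± 0.18 (0.0204), while photocaged ibuprofen stood at -0.60 ± 0.17 (0.0514) and ibufenac bolus at -0.51 ± 0.17 (0.0675). The photocaged ibufenac libraries read 12.0, 17.8 and 19.5 CPM and, like both probes, did not reach the lowest DMSO value. With the GC and length trends taken out the SARS2 change was -0.40 (0.0787) with photocaged ibufenac and -0.39 (0.11) with the ibuprofen probe, and its call held with the ibufenac probe. Under that setting 3 mitochondrial members rose with the ibufenac probe, and 2 each with the ibuprofen probe, photocaged ibufenac and photocaged ibuprofen. Each of the 3 SARS2 calls was lost without DMSO replicate 1 and without replicate 1 of its own arm, the ibufenac probe's also without probe replicate 3 and the ibuprofen probe's without probe replicate 2. EARS2 fell by 0.48 ± 0.09 (0.000956) with the ibufenac probe and by 0.43 ± 0.09 (0.00769) with the ibuprofen probe, calls that stood at -0.30 (0.0573) and -0.25 (0.109) without DMSO replicate 3. TARS2 rose by 0.31 ± 0.08 (0.0228) with the ibufenac probe, and stood at 0.24 (0.163) without DMSO replicate 3.

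Ibufenac bolus gave its member calls at 18 h alone, with FARSA at -0.70 ± 0.19 (adjusted p = 0.0242, edgeR), FARSB at 0.29 ± 0.08 (0.0383) and CARS2 at -0.47 ± 0.13 (0.0284), beside 2.32% of all genes that rose and 2.71% that fell. FARSA and FARSB encode subunits of the same enzyme. Changes in this comparison moved with GC across all genes (Spearman's rho of -0.60), and FARSA has 60.3% GC against 41.6% for FARSB. Taking out the GC and length trends left FARSB at 0.17 (0.211) and CARS2 at -0.34 (0.133), both without a call, and FARSA at -0.37 (0.0278). It also brought 3 mitochondrial members a call as higher in this comparison, where 0 had one before. FARSA gave 100, 107 and 54.3 CPM there against 146, 143 and 137 in DMSO, the lowest being replicate 3, the library farthest from its group. Without that library and DMSO replicate 3, FARSA stood at -0.48 (0.35), FARSB at 0.10 (0.698) and CARS2 at -0.44 (0.269), and none was called. Ibuprofen bolus and photocaged ibuprofen had 0 calls at 18 h by edgeR, with 4 and 9 members at an unadjusted p under 0.05 and 0 and 4 called by DESeq2, beside 0.0723% and 2.21% of all genes.

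**Figure D4:**
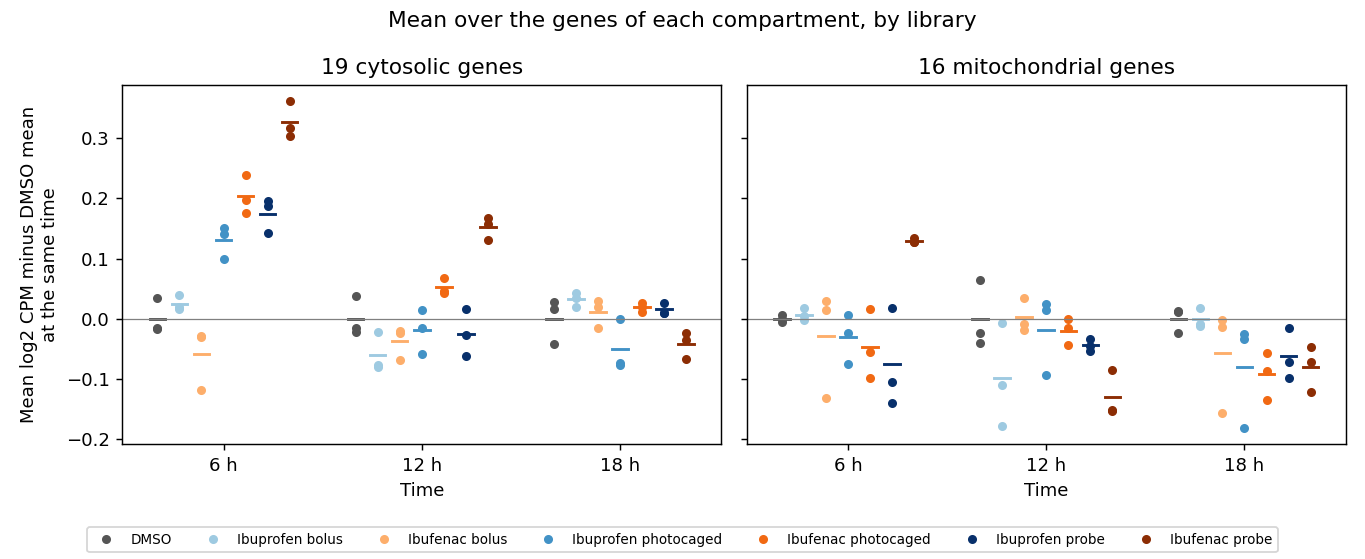
Mean log2 CPM over the 19 cytosolic (left) and 16 mitochondrial members (right) in each library (points) minus the DMSO mean at the same time, with the group mean as a line. Photocaged and probe libraries lie above 0 for the cytosolic genes at 6 h; the ibufenac probe lies above 0 in both panels at 6 h, and at 12 h above it for cytosolic and below it for mitochondrial genes.

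The mean log2 CPM over cytosolic members minus that over mitochondrial members is given as a description. In DMSO this difference was 2.10 ± 0.03 at 6 h, 2.04 ± 0.07 at 12 h and 2.07 ± 0.02 at 18 h (SD, n = 3). It was 2.30 ± 0.03, 2.32 ± 0.04 and 2.11 ± 0.05 with the ibufenac probe, and 2.35 ± 0.08, 2.06 ± 0.03 and 2.15 ± 0.05 with the ibuprofen probe. At 6 h photocaged ibufenac stood at 2.35 ± 0.06 and photocaged ibuprofen at 2.26 ± 0.05, and all photocaged and probe libraries of that time lay above the DMSO ones. At 12 and 18 h photocaged ibufenac stood at 2.11 ± 0.01 and 2.19 ± 0.04 and photocaged ibuprofen at 2.04 ± 0.03 and 2.10 ± 0.07. At 18 h the libraries of photocaged ibufenac, the ibuprofen probe and ibuprofen bolus (2.11 ± 0.02) lay above those of DMSO, and those of the ibufenac probe, photocaged ibuprofen and ibufenac bolus overlapped with them. The lowest ibuprofen bolus library, at 2.09, barely passed the highest DMSO one, at 2.088. At 12 h ibuprofen bolus and the ibuprofen probe had overlapped with DMSO. The boluses at 6 h stood at 2.12 for ibuprofen and 2.07 ± 0.04 for ibufenac, their ranges overlapping with that of DMSO. Both means moved with the ibufenac probe: at 6 h the cytosolic mean was 7.49 in DMSO and 7.81 with the probe and the mitochondrial mean 5.39 and 5.52, and at 12 h the cytosolic means were 7.37 and 7.52 and the mitochondrial ones 5.33 and 5.201. Within amino acids, 17 pairs of a cytosolic and a mitochondrial gene were compared by FPKM ratio. All ibufenac probe libraries lay above those of DMSO for 6 pairs at 6 h, 9 at 12 h and 3 at 18 h, and all lay below for 1, 0 and 2. These counts are a description with no count over other genes beside them, and with 3 libraries per group some pairs can separate by chance. The pairs share the same libraries, and EPRS1 and FARS2 each enter more than 1 pair. HARS1 to HARS2 was below at 6 h, at 2.26 ± 0.32 against 3.01 ± 0.46, and at 18 h TARS1 to TARS2, at 4.45 ± 0.37 against 6.30 ± 0.54, and AARS1 to AARS2. The FARSA to FARS2 ratio at 6 h was 6.60 ± 0.42 against 6.61 ± 0.53. Among the pairs that lay above at 6 and 12 h, the SARS1 to SARS2 ratio with the ibufenac probe was 13.1 ± 1.14, 16.5 ± 1.68 and 15.7 ± 0.79 at 6, 12 and 18 h, above 8.09 ± 0.82, 11.1 ± 0.40 and 9.65 ± 1.22 in DMSO. That of MARS1 to MARS2 was 13.6 ± 1.92, 15.7 ± 1.70 and 10.2 ± 1.01, against 8.76 ± 0.21, 9.96 ± 0.32 and 9.76 ± 1.89. Pairs were counted for the ibufenac probe alone, and these ratios were also high in other arms. At 6 h SARS1 to SARS2 stood at 16.5 with the ibuprofen probe, 16.7 with photocaged ibufenac and 12.55 with photocaged ibuprofen. MARS1 to MARS2 stood at 14.5, 14.8 and 10.98 in the same order. At 18 h SARS1 to SARS2 was 14.5 ± 2.9 with ibufenac bolus.

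Whether an arm's difference from DMSO changed between 6 h and 18 h was tested as a contrast of its own. With the ibufenac probe 9 cytosolic members fell and none rose in this contrast, with 2 mitochondrial ones lower and 1 higher, beside 2.65% of all genes lower and 5.33% higher. CARS1 moved by -0.99 ± 0.12 (adjusted p = 4.16e-08, edgeR), AARS1 by -0.63 ± 0.08 (2.15e-07), SARS1 by -0.62 ± 0.10 (1.02e-05) and TARS1 by -0.60 ± 0.10 (3.02e-05). With photocaged ibufenac CARS1 and SARS1 moved down, beside 0.284% of all genes lower and 0.351% higher. In the other 4 arms edgeR called 0 members, with an unadjusted p under 0.05 for 13 with the ibuprofen probe, 7 with photocaged ibuprofen, 11 with ibufenac bolus and 2 with ibuprofen bolus, and 1, 2, 0 and 0 called by DESeq2, beside 0.0362%, 0.0568%, 0.672% and 0% of all genes. Whether the decline differed between arms was not tested pair by pair. The test over all arms and times, an interaction with 12 degrees of freedom, called 14 cytosolic and 5 mitochondrial members (AARS2, CARS2, EARS2, LARS2 and SARS2), beside 22.8% of all genes. DMSO itself drifted: from 6 to 18 h QARS1 rose by 0.39 ± 0.07 and FARSB (-0.60 ± 0.08), WARS1 (-0.42 ± 0.09), GARS1, HARS1, RARS1, YARS1 and IARS1 fell, as did LARS2 (-0.47 ± 0.07) and TARS2 (-0.34 ± 0.08), while CARS2 rose by 0.38 ± 0.13. Of all genes 7.42% rose and 10% fell in that comparison.

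Ibufenac was set against ibuprofen within each form, averaged and at each time, 12 comparisons in all, with p-values adjusted over genes within a comparison and not over comparisons. Averaged over times in the probe form, SARS1 was higher with ibufenac by 0.19 ± 0.04 (adjusted p = 0.00205, edgeR), AARS1 by 0.15 ± 0.03 (0.00459), IARS1, the isoleucine enzyme, by 0.13 ± 0.03 (0.0139), YARS1 by 0.12 ± 0.03 (0.0195) and VARS1 by 0.26 ± 0.07 (0.0307). These are 5 of 19 cytosolic members, beside 1.13% of all genes higher and 1.69% lower. With the GC and length trends taken out VARS1 stood at 0.07 (0.609) and YARS1 at 0.06 (0.526). VARS1 also lost its call on leaving out any of 7 libraries and YARS1 any of 3. Among mitochondrial members edgeR called 0, with 2 at an unadjusted p under 0.05 and 1 called by DESeq2.

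At 12 h 10 cytosolic members were higher with ibufenac, beside 0.858% of all genes higher and 1.06% lower, with SARS1 at 0.43 ± 0.07 (adjusted p = 0.00014, edgeR), GARS1 at 0.38 ± 0.10 (0.0292), WARS1 at 0.35 ± 0.09 (0.0253), FARSB at 0.33 ± 0.08, YARS1, AARS1, IARS1 and EPRS1 at 0.32, and LARS1 and MARS1 at 0.26. The SARS1 libraries of the ibufenac probe, 306 to 360 CPM, lay above those of the ibuprofen probe, 239 to 264. The count of 10 fell to 4 without replicate 2 of either probe, and AARS1, IARS1, SARS1 and YARS1 kept their calls whichever library was left out. At 18 h edgeR called 0 members between the probes, with 5 at an unadjusted p under 0.05 and 1 by DESeq2. The 95% interval for SARS1 there was -0.18 to 0.09, and over the 35 members the intervals reached from -0.50 (CARS1) to 0.60 (FARSA).

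At 6 h 5 cytosolic members (FARSA 0.89, VARS1 0.70, CARS1 0.33, AARS1 0.26, YARS1 0.18) and 6 mitochondrial ones (SARS2 0.76, AARS2 0.51, CARS2 0.39, VARS2 and PARS2 0.38, EARS2 0.34) were higher with the ibufenac probe, beside 12.9% of all genes higher and 10.7% lower. This contrast followed GC content across genes, with a Spearman's rho of 0.60. With the GC and length trends taken out, AARS1, CARS1 and EARS2 were still called, EPRS1, IARS1, TARS1 and FARSB were called in addition, and VARS1 (-0.10), VARS2 (-0.10) and YARS1 (-0.06) turned sign. At 12 h the rho was -0.43 and all 10 calls held under that setting.

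**Figure D5:**
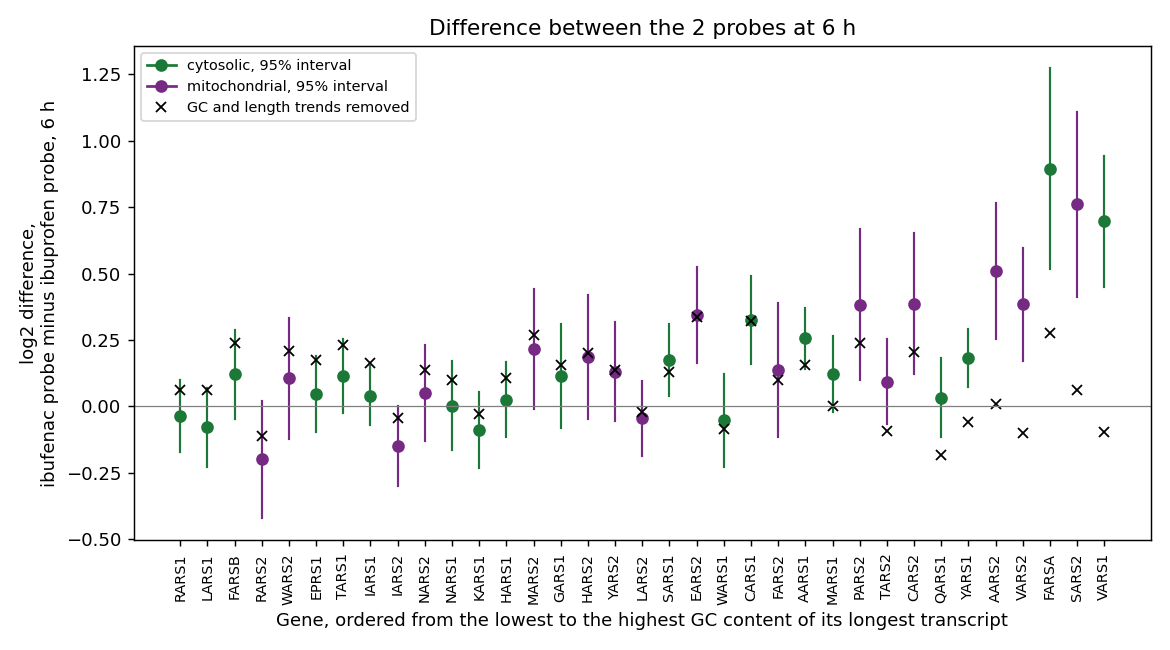
Ibufenac probe minus ibuprofen probe at 6 h (log2, points with 95% intervals) for the 35 members, ordered by GC content, with crosses for the value after the GC and length trends are removed. The GC-rich members at the right, FARSA, SARS2 and VARS1, stand highest, and their crosses lie far lower than their points.

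In the photocaged form no member differed between the drugs by edgeR: 0 of 35 averaged over times, with 11 cytosolic members at an unadjusted p under 0.05, all higher with ibufenac, 0 mitochondrial ones, and 0 by DESeq2. SARS1 differed by 0.11, with a 95% interval of 0.03 to 0.19, and the intervals over the 35 members ran from -0.27 (SARS2) to 0.255 (VARS1). Of all genes 0.0362% were called. At 6, 12 and 18 h edgeR also called 0, with 5, 3 and 0 members at an unadjusted p under 0.05 and 0, 0 and 0 by DESeq2, and the SARS1 interval at 6 h was 0.04 to 0.31. Between the boluses edgeR called 0 averaged over times, with 4 members at an unadjusted p under 0.05 and 0 by DESeq2, and the intervals ran from -0.27 (RARS2) to 0.32 (SARS2). At 6 h LARS1 and NARS1, the leucine and asparagine enzymes, differed by -0.27 ± 0.07 (adjusted p = 0.0435, edgeR) and -0.35 ± 0.08 (0.0248), lower with ibufenac, beside 1.3% of all genes lower and 1% higher. At 12 and 18 h edgeR and DESeq2 called 0 members between the boluses, with 5 and 2 at an unadjusted p under 0.05, beside 0.0362% and 0% of all genes. At 6 h, leaving out any of 5 libraries (LARS1) or 3 (NARS1), ibufenac bolus replicate 3 among them, ended these calls.

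The probe form was set against the photocaged form of the same drug, forms whose difference the labels do not state. For ibufenac SARS1 was higher with the probe by 0.17 ± 0.04 (adjusted p = 0.00875, edgeR), IARS1 by 0.15 ± 0.03 (0.00534) and AARS1 by 0.12 ± 0.03 (0.0317), beside 0.847% of all genes higher and 1.83% lower. At 12 h SARS1 (0.31 ± 0.07), LARS1 (0.28), IARS1 (0.24), AARS1 (0.23) and YARS1 (0.22) were higher and mitochondrial YARS2 differed by -0.37 ± 0.09, beside 0.904% and 1.02% of all genes. With the compared arms alone LARS1 (adjusted p = 0.0647, edgeR), IARS1 (0.0591) and YARS2 (0.0804) lost these 12 h calls. Without the low-count filter AARS1 (0.203), YARS1 (0.203) and IARS1 (0.104) lost theirs. SARS1 kept its call under both settings. At 6 h AARS1, CARS1, YARS1, EARS2 and SARS2 were higher by 0.20 to 0.52, beside 2.53% of all genes higher and 4.85% lower. Without the GC and length trends SARS2 stood at 0.20 (adjusted p = 0.404, edgeR) and YARS1 at 0.09 (0.540), and SARS2 also lost its call with the replicate block (0.0541) and the compared arms alone (0.0674). Leaving out single libraries ended the SARS2 call for 5 of 6, those of CARS1 and YARS1 for 4, that of EARS2 for 3 and that of AARS1 for 1, photocaged replicate 1 in all 5 genes. At 18 h edgeR and DESeq2 called 0, with 5 at an unadjusted p under 0.05, beside 0.00517%. For ibuprofen edgeR called 0 members averaged over times, with 8 at an unadjusted p under 0.05 and 0 by DESeq2, and SARS1 differed by 0.09, with an interval of 0.01 to 0.17, beside 0.0982% of all genes. At 6, 12 and 18 h edgeR also called 0, DESeq2 1, 0 and 0, and p before adjustment was under 0.05 for 11, 1 and 1, beside 0.119%, 0% and 0.00517%.

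Other genes of the same pathways were followed in lists chosen with earlier results of these data known. Of 26 other ATF4 targets, averaged over times, 19 rose and 0 fell in the ibufenac probe arm (median 0.46), where 5.87% of all genes rose and 7.31% fell, led by NUPR1, a stress-induced chromatin protein, at 1.40 ± 0.16, TRIB3, a pseudokinase, at 0.98 ± 0.05, PCK2 at 0.95 ± 0.08 and JDP2 at 0.95 ± 0.17. With photocaged ibufenac 15 rose and 1 fell (median 0.28), with the ibuprofen probe 13 and 1 (median 0.26), and with photocaged ibuprofen 9 and 1 (median 0.15), beside 4.13% and 3.36%, 3.81% and 4.61%, and 1.98% and 2.3% of all genes. At 6 h 25 of the 26 rose with the ibufenac probe (median 0.86), 14 with photocaged ibufenac, 12 with the ibuprofen probe and 11 with photocaged ibuprofen, beside 4.63%, 1.78%, 3.61% and 0.599% of all genes. At 18 h the medians were -0.02, 0.00, 0.04 and -0.09 in the same order. XPOT, the exporter of tRNAs from the nucleus, rose with the ibufenac probe by 0.39 ± 0.04 (adjusted p = 2.16e-09, edgeR), with photocaged ibufenac by 0.28 ± 0.04 and with the ibuprofen probe by 0.24 ± 0.04. TRNT1, which adds the CCA end of tRNAs, fell by 0.20 to 0.23 in all 4 arms, and of the 8 export and processing genes 1 rose and 2 fell with the ibufenac probe.

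None of the 3 scaffold genes of the multisynthetase complex (AIMP1, AIMP2, EEF1E1) was called by edgeR in an averaged comparison with DMSO, and AIMP2 fell at 6 h with the ibuprofen probe by 0.31 ± 0.09 (adjusted p = 0.0152). The counts that follow are for the ibufenac probe averaged over times, where 5.87% of all genes rose and 7.31% fell. In such short lists 1 or 2 calls are too few to set apart from those shares. Of 4 genes for mitochondrial glutamine amidation and formylation, GATC, an amidotransferase subunit, fell with the ibufenac probe by 0.14 ± 0.04 (0.0122). Of 10 mitochondrial translation factors 2 fell and none rose there, MTRF1, a release factor, by 0.50 ± 0.11 (0.00096) and GFM1, an elongation factor, by 0.21 ± 0.04 (8.11e-05). Of 6 cytosolic elongation factor genes EEF1A1 rose by 0.17 ± 0.04 (0.00133) and EIF5A fell by 0.32 ± 0.06 (6.56e-05).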

How the data were processed

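Total RNA depleted of ribosomal RNA was sequenced from a stranded kit, per the labels' protocols, in 63 libraries. The authors deposited expected counts per gene (22.6% of values of at least 1 are not whole) and FPKM for 58336 genes. For the aligner, the counter, the counting strand and the genome build, the entry is "not given in the sources used here". The estimated counts were rounded to whole numbers and fitted once over 21 groups with edgeR 4.0.16 (R 4.3.3, TMM factors of 0.908 to 1.11, filterByExpr with a minimum count of 10, quasi-likelihood test, 42 residual degrees of freedom). Adjusted p-values are Benjamini-Hochberg over 19352 genes within each of 52 tests, at 0.05. The deposited FPKM was used for levels between genes. Log2 CPM used a prior count of 2. Alternatives were DESeq2 1.42.0, RLE factors, no filter, a replicate block, the compared arms alone, leaving out libraries, and, added after seeing the data, removal of GC and length trends.

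The members and lists were chosen with earlier results of these data known. All 35 members are accounted for, and each is named where called. Values per library are given for the 5 cytosolic and 4 mitochondrial called members with the largest averaged change at a mean of at least 1 CPM. Values per library of CARS1, AARS2 and PARS2 were added after they were seen. The test was checked on simulated data for the ibufenac probe over the 3 times: it called 30 of 50 genes raised 1.25-fold and 50 of 50 raised 1.5-fold. Those changes were planted in genes above 5 CPM on the DMSO levels at 6 h. The simulated libraries had no drift with time, no GC trend and no outlying library, unlike the real ones. Smaller changes were not planted, and false calls among unchanged genes are not given here.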

Additional observations from a re-analysis of the deposited data

Results flagged for a closer look

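Differences from DMSO that themselves changed between 6 and 18 h are given here as that change (log2, 18 h minus 6 h, edgeR with adjusted p). With the ibufenac probe CARS1 changed by -0.99 ± 0.12 (adjusted p = 4.163e-08), passing from 0.69 above DMSO at 6 h to -0.30 at 18 h. AARS1 changed by -0.63 ± 0.08 (2.148e-07), SARS1 by -0.62 ± 0.10 (1.024e-05), MARS1 by -0.61 ± 0.10 (3.018e-05) and TARS1 by -0.60 ± 0.10 (3.02e-05). TARS1 had already reached -0.06 at 12 h, where SARS1 was at 0.44. GARS1 changed by -0.57 ± 0.14 (0.00547), YARS1 by -0.51 ± 0.08 (7.68e-06), EPRS1 by -0.32 ± 0.10 (0.03815) and IARS1 by -0.31 ± 0.08 (0.007894). Among mitochondrial members SARS2 changed by -0.97 ± 0.24 (0.007448), from 0.25 to -0.72, and EARS2 by -0.57 ± 0.13 (0.002349), from 0.09 to -0.48. LARS2 changed the other way, by 0.32 ± 0.10 (0.04131), from -0.22 to 0.09. With photocaged ibufenac CARS1 changed by -0.52 ± 0.12 (0.01779) and SARS1 by -0.42 ± 0.10 (0.01779).

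Of 12 libraries left out in turn, 7 ended the EPRS1 call, 6 that of LARS2, 5 that of CARS1 with photocaged ibufenac and 3 that of SARS1 in that arm.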

How the results depend on the processing

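Counts below are of members called, the value under the alternative following the one reported. For arms against DMSO over the 3 times, 47 of 48 gene calls held with DESeq2 and with RLE factors, 48 with the replicate block, 45 with GC and length trends removed, 44 without DMSO and ibufenac bolus replicate 3 at 18 h, 39 without the filter and 38 with the compared arms alone. Causes were not tested. Depth was not varied.

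With the compared arms alone, photocaged ibufenac from 6 to 18 h went from 2 to 1, the averaged ibufenac probe against photocaged from 3 to 1, averaged photocaged ibuprofen from 2 to 0 higher and 1 to 0 lower (cytosolic) and 1 to 0 in each direction (mitochondrial), its 6 h cytosolic count from 5 to 1, the mitochondrial ibufenac probe counts from 3 to 1 at 12 h and 4 to 2 at 6 h, and mitochondrial higher calls with the ibuprofen probe from 1 to 0. Without the filter, the 6 to 18 h counts went from 0 to 1 for ibufenac bolus and photocaged ibuprofen, the ibuprofen probe against photocaged from 0 to 1, photocaged ibuprofen from 2 to 1 averaged and 5 to 3 at 6 h, cytosolic lower calls from 0 to 1 in both boluses and photocaged ibufenac and from 1 to 0 with the ibufenac probe, mitochondrial calls with the ibufenac probe from 3 to 1 at 12 h and 4 to 2 at 6 h, and mitochondrial higher calls from 1 to 0 in both photocaged arms and the ibuprofen probe and 1 to 2 with the ibufenac probe. With DESeq2, the 6 to 18 h counts went from 2 to 4 for photocaged ibufenac, 0 to 2 for photocaged ibuprofen and 0 to 1 for the ibuprofen probe, the ibufenac probe against photocaged from 3 to 6, photocaged ibufenac at 6 h (mitochondrial) from 0 to 1, and mitochondrial higher calls with the ibufenac probe from 1 to 2. RLE factors took the mitochondrial count of the ibuprofen probe at 6 h from 2 to 1.

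With GC and length trends removed, the 6 to 18 h counts went from 0 to 2 for ibufenac bolus and 0 to 1 for the ibuprofen probe, the probes compared at 6 h from 11 to 7, the ibufenac probe against photocaged from 3 to 5, cytosolic lower calls with photocaged ibuprofen from 1 to 0, mitochondrial counts at 6 h from 0 to 2 (photocaged ibufenac) and 4 to 2 (ibufenac probe), and mitochondrial higher calls from 1 to 3 (ibufenac probe) and 1 to 2 (ibuprofen probe). Mitochondrial higher calls at 18 h went from 0 to 3 with ibufenac bolus, 0 to 2 in both photocaged arms and the ibuprofen probe, and 1 to 3 with the ibufenac probe. Lower calls there went from 1 to 0 with ibufenac bolus and photocaged ibufenac, 2 to 1 with the ibuprofen probe and 2 to 2 with the ibufenac probe. For the ibuprofen probe at 6 h, mitochondrial higher calls went from 0 to 2 and lower calls from 2 to 1. Signs turned for VARS1 (-0.10), VARS2 (-0.10) and YARS1 (-0.060) between the probes at 6 h and for VARS1 with the ibuprofen probe at 6 h (0.0456). Without DMSO and ibufenac bolus replicate 3 at 18 h, the 6 to 18 h counts went from 2 to 4 (photocaged ibufenac) and 0 to 1 (photocaged ibuprofen), averaged photocaged ibuprofen from 2 to 1 cytosolic higher and 1 to 0 mitochondrial in each direction, photocaged ibufenac at 6 h from 0 to 1 mitochondrial, and the ibuprofen probe from 1 to 0 mitochondrial higher. By CPM in place of FPKM, 2 mitochondrial members instead of 1 were among the 19 highest.

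The replicate block took mitochondrial calls with photocaged ibufenac at 6 h from 0 to 1. Same-numbered libraries correlated by 0.0023 on average (-0.13 to 0.21), 3 of 189 pairs exceeded 0.1, and 28 of 63 libraries correlated best with their own number. These values cannot tell whether same-numbered libraries share a culture or handling.

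Leaving out each library in turn, averaged cytosolic higher counts ranged from 8 to 10 (photocaged ibufenac), 11 to 12 (ibufenac probe), 0 to 3 (photocaged ibuprofen) and 8 to 9 (ibuprofen probe), lower counts 1 to 1 (ibufenac probe), 0 to 1 (photocaged ibuprofen) and 2 to 3 (ibuprofen probe), mitochondrial higher counts 1 to 1, 1 to 2, 0 to 1 and 0 to 1, and lower counts 2 to 3, 2 to 3, 0 to 1 and 2 to 4, in the first order. At 6 h the cytosolic counts ranged from 7 to 11, 11 to 12, 0 to 4 and 9 to 12 and the mitochondrial ones 0 to 1, 2 to 3, 0 to 0 and 0 to 3; at 12 h with the ibufenac probe they were 6 to 9 and 0 to 3. Changes from 6 to 18 h gave 0 to 4, 10 to 15, 0 to 1 and 0 to 0, and ibufenac bolus 0 to 3. Probes compared between drugs gave 3 to 6 averaged, 8 to 11 at 6 h and 4 to 11 at 12 h, and the ibufenac probe against photocaged 2 to 5. Counts stayed at 0 for each bolus against DMSO averaged and at 6 h, for averaged cytosolic lower calls with photocaged ibufenac, for ibuprofen bolus from 6 to 18 h, and for averaged comparisons between drugs as bolus or photocaged and between ibuprofen forms.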
